A study of Homo sapiens with 9 samples.

Results

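The ADAM proteins are membrane-anchored metalloproteases, and the genes described here are 6 of them, ADAM9, ADAM10, ADAM12, ADAM15, ADAM17 and ADAM19, together with TIMP3, an inhibitor of ADAM17, and RHBDF1, a cofactor of ADAM17. The genes were chosen from the gene family with the array values of earlier comparisons in view, so ADAM17 and ADAM19 in particular are here because of how they behaved. Their values are therefore a description, and where an adjusted p is printed for one of the 8 genes it only places the gene among all genes fitted and is not a test of it. The array holds 24 probe sets annotated to these genes alone, of 54675 probe sets in all, and the 8 genes are among 19775 genes that have such a probe set. Of the 24 probe sets 22 passed the filter on dim signals, at least 1 for each of the 8 genes.

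RNA came from SW1783, an established human glioma cell line, 24 h after transfection with a miRNA duplex at 50 nM. The cells received either miR-376a*A or miR-376a*G, or else a control miRNA, delivered with Lipofectamine RNAiMAX, and each of the 3 groups has 3 arrays that the labels call biological replicates. No untransfected cells are among the arrays, so every group shares the transfection itself. The labels do not say whether replicates came from separate cultures, and p-values then measure only the spread between these samples.

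ADAM sheddases cut the outer part of membrane proteins at the cell surface and so release growth factors, cytokines, receptors and adhesion proteins. ADAM17, also known as TNF-alpha converting enzyme, releases TNF and several ligands of the EGF receptor, and ADAM10 cuts Notch receptors, the amyloid precursor protein and N-cadherin. ADAM17 leaves the endoplasmic reticulum bound to an iRhom protein, of which RHBDF1 encodes iRhom1, and TIMP3 binds the active protease outside the cell. In glioma, EGF receptor signalling and N-cadherin shedding are among the processes with which these proteases have been linked.

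A miRNA pairs with its targets mainly through its seed, bases 2 to 8, and the adenosine-to-guanosine change that separates the transfected forms stands for A-to-I editing of this miRNA. The miRNA is printed because every contrast below is between its forms or against the control. miR-376a* is the older name of hsa-miR-376a-5p, made from MIR376A1 at chr14:101040788-101040809 (plus strand, GRCh38.p14, RefSeq), and it has 22 bases, with the seed in capitals:
hsa-miR-376a-5p: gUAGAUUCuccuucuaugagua
The labels do not say which adenosine is replaced in miR-376a*G, and the seed holds 2, so the sequence of the G form is not printed.

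The values are deposited linear signals, in arbitrary units of brightness. They allow comparison of a probe set between arrays, not of genes with each other. Fold changes were computed after log2(signal + 16) and quantile normalization, so they need not equal the ratio of the printed signals. A gene is said to have been called when its limma adjusted p was under 0.05 over the 12505 genes fitted. Groups without overlap were common among all 27338 probe sets fitted, counting either direction on the normalized arrays. The share was 19.3% for miR-376a*A against control, 20.8% for miR-376a*G against control and 26.0% between the forms. These shares stand beside every separation described below. In cultures measured in bulk, fewer cells making a transcript and less transcript per cell cannot be told apart.

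The first control array stood apart from the rest. Its highest rank correlation with any other array was 0.941, against 0.969 to 0.970 for the other 8, and its brightest probe set reached 7191 signal units, against 3601 to 4374. Median signals ranged from 18.8 to 24.0, the highest being on that array. Differences against control of the 8 genes are therefore given with and without it. The same was done for each difference of a listed pathway gene against control that was called in the fit to all arrays. Of 8 glial and mesenchymal markers 3 passed the filter, VIM at 2218 to 4401, SLC1A3 at 91.6 to 124 and SOX2 close to the limit, whereas GFAP, S100B, NES, AQP4 and OLIG2 did not. GFAP, a defining astrocyte marker, read 1.30 to 3.75. The summed signal of that list was 2390 to 2811 with miR-376a*A, 2398 to 2692 with miR-376a*G and 2421 to 4589 in the control.

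ADAM17 signal was lowest in the cells given miR-376a*A. Probe set 213532_at, the brightest of the gene, read 150.2, 148.2 and 148.2 on the 3 miR-376a*A arrays, 223.7, 241.8 and 225.8 on the miR-376a*G arrays, and 170.5, 250.5 and 236.7 on the control arrays. All 3 miR-376a*A arrays lay below all the others, and the lowest control was the array that stood apart. Means were 149 ± 1.19, 230 ± 9.89 and 219 ± 42.8 (SD, n = 3 arrays each) in that order.

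The log2 difference in ADAM17 between miR-376a*A and miR-376a*G was -0.57 (SE 0.12, n = 3 against 3), a 1.48-fold lower level, with a limma adjusted p of 0.0362. That call was lost when any 1 of the 6 arrays compared was left out and, among other settings, when arrays were centred on their medians (limma adjusted p 0.139). Against the control the difference was -0.51 (SE 0.12), 1.42-fold lower, with a limma adjusted p of 0.0522, just outside the threshold. Leaving out the first control array gave -0.63 (SE 0.08), with a limma adjusted p of 0.000488. For miR-376a*G the ADAM17 level was 0.06 above control on the log2 scale (95% interval -0.21 to 0.33), so those neighbours in the order were not separated beyond their spread. Without the first control array that difference changed sign, to -0.06, and was not called.

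The other ADAM17 probe sets ran the same way between the forms. Probe set 205746_s_at read 56.9, 70.6 and 67.7 on the miR-376a*A arrays, 97.4, 93.2 and 97.7 on the miR-376a*G arrays, and 151, 89.7 and 114.2 in the control. Probe set 205745_x_at read 126.8, 122.8 and 109, then 130.3, 155.6 and 145.8, then 112.2, 168.3 and 180 in the same order of groups. For all 3 ADAM17 probe sets the miR-376a*A arrays lay below the miR-376a*G arrays with no overlap, a separation in either direction that 26.0% of all 27338 probe sets fitted showed. Against the control 2 of 3 were separated, against 19.3% of all probe sets, and the exception was 205745_x_at, where the first control array was also low. Between miR-376a*G and control none of the 3 was separated, against 20.8% of all probe sets.

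The size of the difference varied among ADAM17 probe sets. Between miR-376a*A and miR-376a*G the log2 differences were -0.57, -0.46 and -0.22 for 213532_at, 205746_s_at and 205745_x_at. Against control they were -0.51, -0.71 and -0.30. When each probe set was fitted among all 27338, none of the 3 was called in any comparison, and 213532_at had a limma adjusted p of 0.0517 between the forms. All 3 were called lower with miR-376a*A than in the control when the first control array was left out, at -0.63, -0.50 and -0.45.

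**Figure D1:**
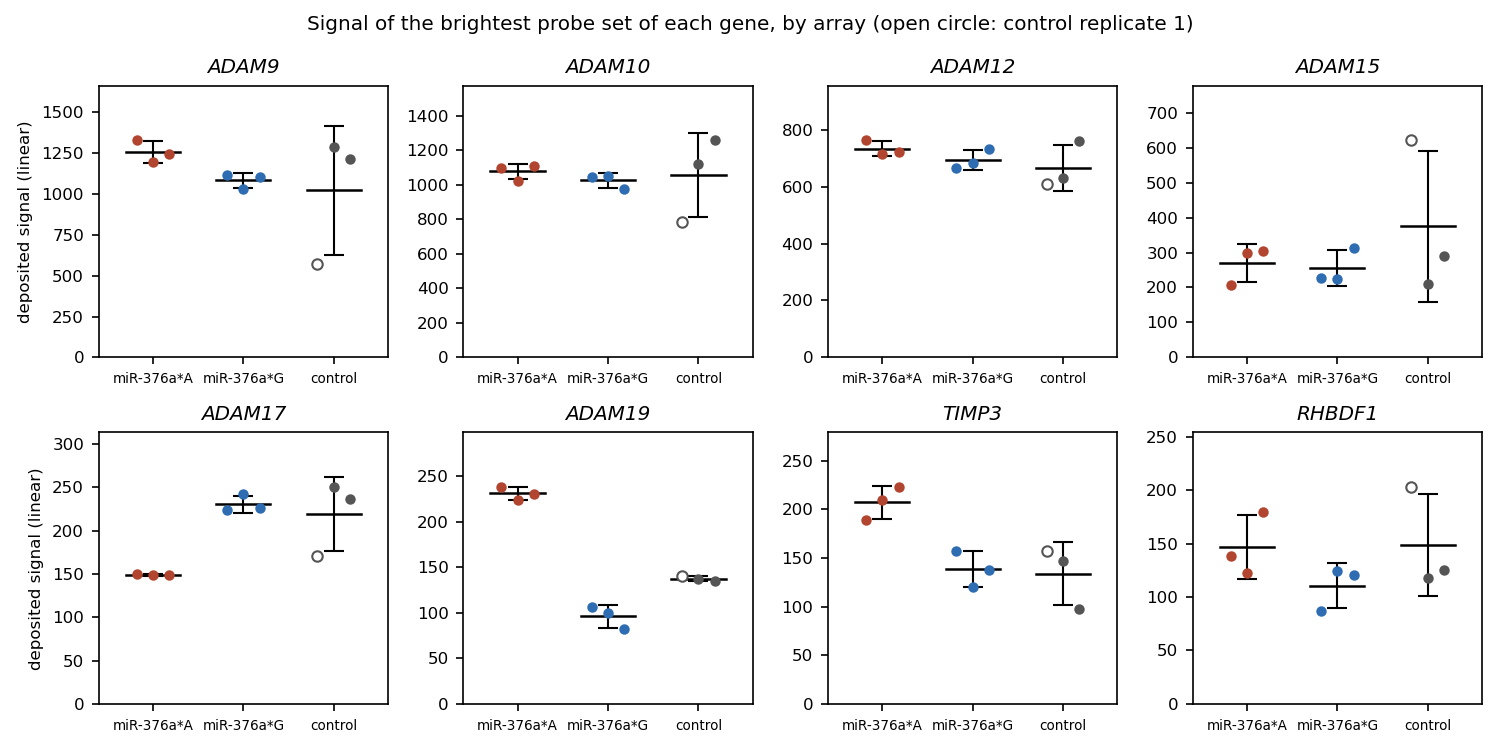
Deposited linear signal (y axis, from 0) of the brightest probe set of each of the 8 genes on the 9 arrays, by group (x axis). Points are arrays, the open circle is the first control array, the long line is the mean and the bars are the SD of 3 arrays. ADAM17 is lowest and ADAM19 highest on the miR-376a*A arrays, and the open circle sets most of the control spread of ADAM9, ADAM15 and RHBDF1.

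TIMP3 is a secreted inhibitor held in the extracellular matrix and is the TIMP with activity against ADAM17. Its brightest probe set, 201149_s_at, read 189.4, 209.6 and 223.1 after miR-376a*A, 156.9, 120.6 and 138 after miR-376a*G, and 157.3, 147.2 and 97.1 in the control. The miR-376a*A arrays were above all others. Means were 207 ± 17.0, 138 ± 18.2 and 134 ± 32.2 (SD, n = 3). The log2 difference was 0.59 (SE 0.19) against control and 0.55 (SE 0.19) against miR-376a*G, and neither was called, with limma adjusted p of 0.150 and 0.245. With the first control array left out they were 0.75 and 0.55 and both were called, with limma adjusted p of 0.0102 and 0.0332. The difference between the forms itself stayed at 0.55. Its SE fell from 0.19 to 0.14, as the fit shares a single estimate of the spread over the 3 groups. For miR-376a*G against control the TIMP3 difference was 0.04 with all arrays and 0.21 without the first control array, neither called.

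For all 4 TIMP3 probe sets the miR-376a*A arrays lay above the miR-376a*G arrays without overlap. Such a separation, in either direction, was shown by 26.0% of all 27338 probe sets fitted. From the control 3 of the 4 were separated too, against 19.3% of all probe sets. Probe set 201150_s_at read 149.8, 149.9 and 154 on the miR-376a*A arrays, 114.8, 100.3 and 112.5 on the miR-376a*G arrays, and 57.5, 98.6 and 102.2 in the control. Its miR-376a*A arrays varied least and the first control array was the lowest of the 9. This probe set was called higher with miR-376a*A than in the control, at 0.78 with a limma adjusted p of 0.0473 over all probe sets, and the fit without the first control array gave 0.56. The probe set 201148_s_at, where the control overlapped, read 170, 138.6 and 132 with miR-376a*A and 150.7, 112.1 and 123.5 in the control. The log2 differences between the forms ranged from 0.23 to 0.55 over the 4 probe sets.

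RHBDF1 encodes a catalytically inactive rhomboid protein that escorts ADAM17 through the secretory pathway. Probe set 218686_s_at read 138.1, 122.6 and 179.7 after miR-376a*A, 86.9, 124.6 and 120.6 after miR-376a*G, and 203.2, 117.6 and 125.1 in the control. The groups overlapped in every comparison. The log2 difference was 0.00 (SE 0.23) for miR-376a*A against control, -0.37 (SE 0.23) for miR-376a*G against control and 0.36 (SE 0.23, 95% interval -0.16 to 0.88) between the forms. Without the first control array, which had the highest reading, they were 0.27, -0.10 and 0.36, and none was called. The other RHBDF1 probe set, 222711_s_at, read at most 14.5 and did not pass the filter.

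ADAM19, also called meltrin beta, cuts neuregulins and takes part in heart and nerve development. Probe set 209765_at read 238.2, 223.8 and 230.5 on the miR-376a*A arrays, 106.5, 99.7 and 82.1 on the miR-376a*G arrays, and 140.4, 136.8 and 134.9 in the control. The 3 groups did not overlap, with miR-376a*A highest, the control between and miR-376a*G lowest, and here the first control array read like the other controls. Of all probe sets 19.3%, 20.8% and 26.0% were separated in the comparisons of miR-376a*A with control, miR-376a*G with control and the forms. Means were 231 ± 7.21, 96.1 ± 12.6 and 137 ± 2.80 (SD, n = 3).

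Between the forms the ADAM19 log2 difference was 1.14 (SE 0.12), a 2.21-fold higher level with miR-376a*A, which ranked 32 of 12505 genes by p with a limma adjusted p of 0.000795. Against control it was 0.68 (SE 0.12), 1.60-fold higher, with a limma adjusted p of 0.0115. With miR-376a*G it was -0.47 (SE 0.12), 1.38-fold lower than control, with a limma adjusted p of 0.0535, which missed the threshold. Leaving out the first control array gave 1.15, 0.73 and -0.42, all called. The call against control with miR-376a*A was lost when any of the 3 miR-376a*A arrays was left out. The other ADAM19 probe set, 221128_at, read 12.0 to 23.8 and did not pass the filter, so the pattern rests on 1 probe set. This dim probe set ran the other way. Its miR-376a*A arrays read 13.8, 11.96 and 12.36, below every other array. The miR-376a*G arrays read 14.76, 21.55 and 20.02, and the control arrays 23.77, 14.36 and 17.52. No difference was fitted for 221128_at, so the conflict in direction was not tested.

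ADAM10 is the main sheddase of Notch and the alpha-secretase of the amyloid precursor protein. Probe set 202603_at read 1098, 1024 and 1107 after miR-376a*A, 1045, 1052 and 977.4 after miR-376a*G, and 785.8, 1120 and 1257 in the control. The treated groups lay inside the control range. The log2 difference was 0.00 (SE 0.16, 95% interval -0.36 to 0.36) for miR-376a*A against control and -0.05 (SE 0.16) for miR-376a*G, and it was 0.05 between the forms (95% interval -0.31 to 0.41).

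The first control array decided how ADAM10 compared with the control. Without it the log2 differences were -0.22 with miR-376a*A, not called, and -0.27 with miR-376a*G, called lower with a limma adjusted p of 0.0356. Probe sets of ADAM10 then differed among themselves: 214895_s_at was -0.36 with miR-376a*A, called lower, and -0.08 with miR-376a*G, not called, while 202604_x_at was -0.12 and -0.07. On 214895_s_at the miR-376a*A arrays read 115.8, 130 and 117, below 150.8, 160.2 and 144.6 with miR-376a*G.

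ADAM9, or meltrin gamma, is a broadly expressed member of the family. Probe set 202381_at read 1328, 1194 and 1245 on the miR-376a*A arrays, 1114, 1027 and 1106 on the miR-376a*G arrays, and 569.2, 1289 and 1211 in the control. The miR-376a*A arrays lay above the miR-376a*G arrays, and the first control array read lower than any other. The log2 difference between the forms was 0.19 (SE 0.25, 95% interval -0.37 to 0.75). Against control it was 0.30 for miR-376a*A and 0.11 for miR-376a*G, and without the first control array both turned negative, to -0.08 and to -0.26, the second being called lower with a limma adjusted p of 0.0240. The other ADAM9 probe sets were at 0.15 and 0.23 between the forms, with overlapping arrays.

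ADAM12, or meltrin alpha, can release HB-EGF and is found at raised levels in several tumours. Its brightest probe set, 226777_at, read 762.8, 716.3 and 721.6 after miR-376a*A, 665.5, 683.7 and 732.5 after miR-376a*G, and 607.8, 631.5 and 759.2 in the control. The groups overlapped, with log2 differences of 0.11 and 0.05 against control and 0.06 between the forms (SE 0.10, 95% interval -0.16 to 0.29). Without the first control array the differences against control were 0.06 and -0.01. None of its 5 probe sets was called with all arrays or without that one. The lowest of them, 215613_at, read 29.3, 46.9 and 35.7 with miR-376a*G against 54.5, 54.2 and 53.5 in the control, a log2 difference of -0.35 that was not called.

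ADAM15 carries an integrin-binding motif in its extracellular part. Probe set 1555896_a_at read 206.1, 299.2 and 303.3 on the miR-376a*A arrays, 225.9, 224.6 and 314.3 on the miR-376a*G arrays, and 621, 211.4 and 291.3 in the control. The first control array was the highest reading and the remaining control arrays lay among the treated ones. The log2 differences against control, -0.32 and -0.41 (SE 0.33), became 0.12 and 0.04 without that array, and the difference between the forms was 0.09 (95% interval -0.66 to 0.83). The dimmer ADAM15 probe set, 217007_s_at, was at -0.18 and -0.29 against control and 0.11 between the forms. Without that array it was at 0.26 and 0.15 against control, and it was not called in either fit.

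**Figure D2:**
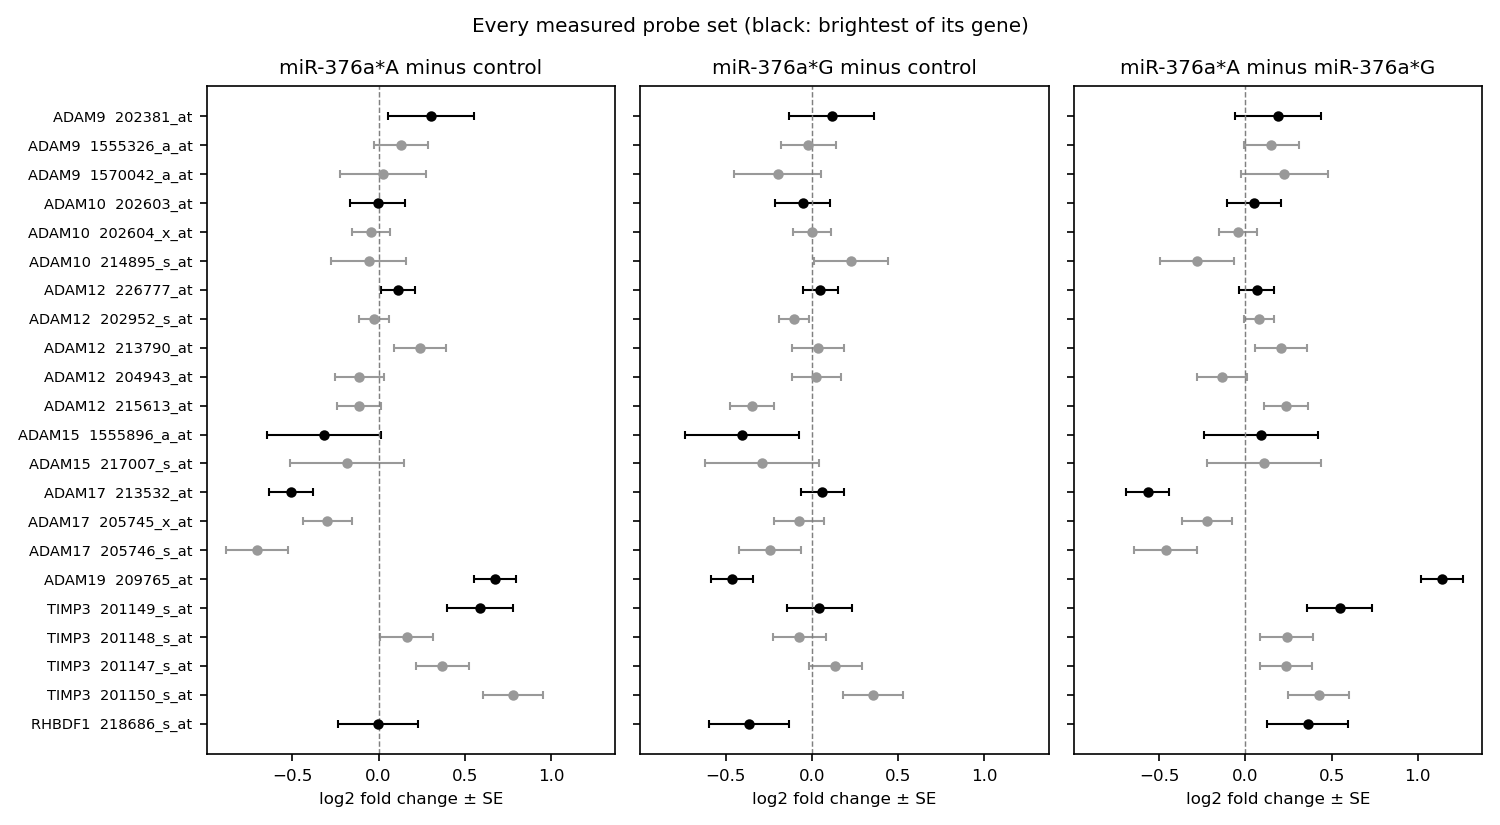
Log2 fold change with its SE (x axis) of the 22 probe sets above the filter (y axis, by gene) in each of the 3 comparisons. Black points are the brightest probe set of a gene and grey points the others. The 3 ADAM17 probe sets lie below 0 and the 4 TIMP3 probe sets above 0 between miR-376a*A and miR-376a*G, whereas those of ADAM10 and ADAM12 scatter about 0.

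Between miR-376a*A and control 1 of the 8 genes was called, ADAM19, higher, against 3.33% of all genes. Between miR-376a*G and control 0 of the 8 were called by limma, against 4.62% of all genes, and 1 had an unadjusted p under 0.05. Between the forms 2 were called, ADAM19 higher and ADAM17 lower with miR-376a*A, against 2.63% of all genes. The medians of the 8 log2 differences were 0.06, 0.00 and 0.14, beside 0.01, 0.01 and 0.00 over all genes. Because the genes were chosen with these contrasts known, nothing is read from these counts.

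By probe set, 2 of the 22 were called with miR-376a*A against control, 1 each of ADAM19 and TIMP3, against 2.49% of all probe sets. With miR-376a*G against control 0 were called, against 3.44% (941 of 27338), and between the forms 1 was called, of ADAM19, against 1.84%. The comparisons with control share the same control arrays and are not independent of each other.

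Without the first control array the share of all genes called was larger in each comparison. The 3 groups share a single estimate of the spread, so leaving out that array changed calls between the forms too. With miR-376a*A against control ADAM17, ADAM19 and TIMP3 were called, 3 of 8, against 13.4% of all genes. With miR-376a*G against control ADAM9, ADAM10 and ADAM19 were called lower, also 3 of 8, against 17.0% of all genes. Between the forms ADAM17, ADAM19 and TIMP3 were called, against 9.72% of all genes.

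**Figure D3:**
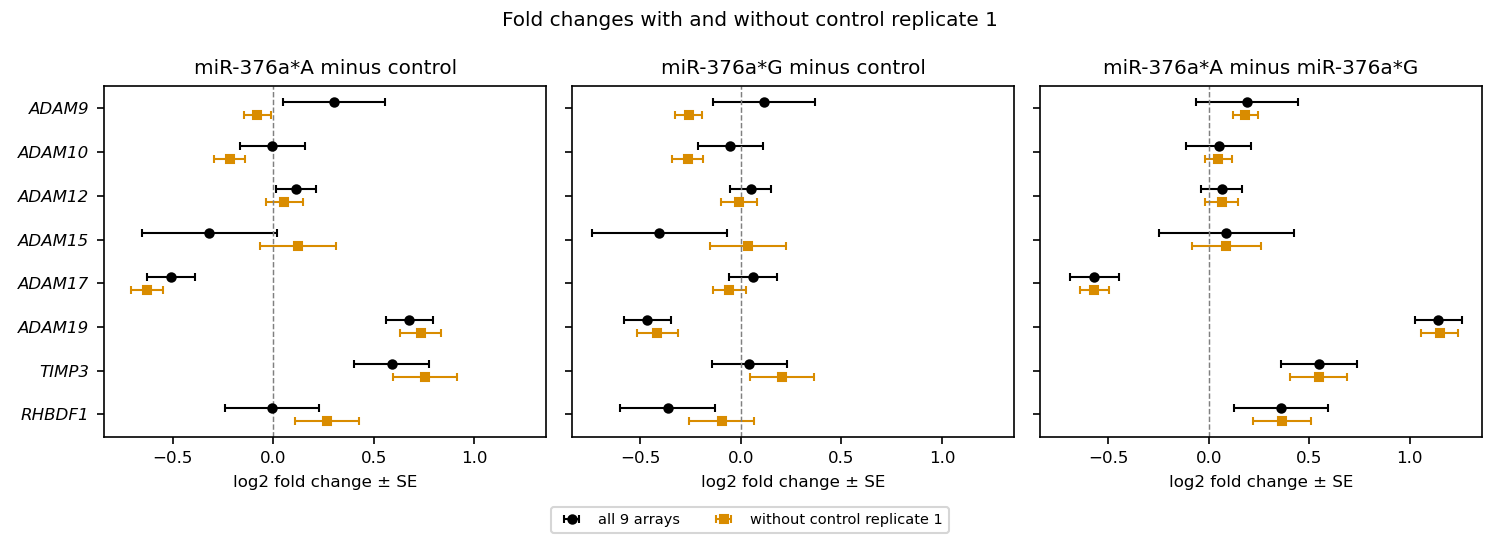
Log2 fold change with its SE (x axis) of the 8 genes (y axis) in each comparison, fitted to all 9 arrays (black circles) and without the first control array (orange squares). Values between miR-376a*A and miR-376a*G hardly move, whereas ADAM9, ADAM15 and RHBDF1 shift against control, ADAM9 from 0.30 to -0.08 with miR-376a*A.

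Across the 9 arrays the ADAM19 level had a Pearson correlation of -0.89 with ADAM17, and TIMP3 had -0.84, while RHBDF1 had -0.49, ADAM10 0.25, ADAM12 -0.25, ADAM15 -0.23 and ADAM9 0.01. The arrays fall into 3 treatment groups, so these values describe the group pattern and carry no test. The 5 genes with the pattern most like that of ADAM17 over the 9 arrays were COMMD2 (r = 0.99), SLC39A10 (0.98), ERLIN2 (0.98), TVP23B (0.98) and DENR (0.98). TVP23B read 144.8, 135.4 and 108.8 after miR-376a*A, 445.1, 474.7 and 481.3 after miR-376a*G, and 291.8, 593.2 and 546.4 in the control. Like ADAM17, it was low on every miR-376a*A array and lowest among controls on the first array. The log2 differences of the 5 genes between the forms ran from -0.67 for DENR to -1.72 for TVP23B, each further from 0 than that of ADAM17.

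Other genes of the pathway were taken from 9 lists of 114 genes, of which 77 were measured, 28 lay below the filter and 9 had no probe set annotated to them alone. In all, 3 of the 77 rose and 2 fell with miR-376a*A against control (6.49%), 2 rose and 5 fell with miR-376a*G (9.09%), and between the forms 2 were higher and 1 lower on the miR-376a*A arrays (3.90%). Background shares are the 3.33%, 4.62% and 2.63% given above, and the lists were written with earlier results known. In the fit that blocks on replicate number, 360 in place of 578 of all genes were called between miR-376a*G and control, and all 7 of these listed genes were still called.

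The proteins that govern ADAM17 itself gave no calls in the fit to all arrays. None of the 4 other metalloprotease inhibitors measured, TIMP1, TIMP2, TIMP4 and RECK, was called in any comparison, with log2 differences from -0.13 to 0.16. TIMP1 read 3184, 3055 and 3576 with miR-376a*A and 3297, 3057 and 2910 with miR-376a*G. None of the 11 measured genes of ADAM17 maturation and trafficking was called, among them RHBDF2, which encodes the second iRhom, FRMD8, which stabilises iRhoms, and FURIN, which removes the ADAM17 prodomain.

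In the fit that left out the first control array 3 of those 11 were called with miR-376a*A against control, 2 with miR-376a*G and 1 between the forms, where 13.4%, 17.0% and 9.72% of all genes were called. ITGA5, the integrin alpha5 subunit that can bind ADAM17, was higher with miR-376a*A, at 0.55 against control and 0.36 against miR-376a*G. MAPK3, the kinase ERK1, was called higher than control with each form, at 0.46 for miR-376a*A and 0.39 for miR-376a*G, and the difference of 0.08 between the forms was not called. PRKCA, a protein kinase C that stimulates shedding, was lower than control with each form, at -0.60 for miR-376a*A and -0.54 for miR-376a*G. With all 9 arrays none of the 3 was called. Against control ITGA5 was then 0.28 and -0.08, MAPK3 0.05 and -0.03, and PRKCA -0.41 and -0.36, for miR-376a*A and miR-376a*G. For MAPK3 the first control array read 206.9, beside 82.7 and 95.0 on the other controls. The 6 TspanC8 tetraspanins, which bind and route ADAM10, gave no call in any comparison with all arrays or without that array.

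Among substrates the ErbB system showed no call in the fit to all arrays. The 4 measured ligands were EREG, HBEGF, TGFA and NRG1, with log2 differences from -0.40 to 0.52, and the 3 measured receptors were EGFR, ERBB2 and ERBB3. EGFR read 778.3, 806.3 and 838.1 on the miR-376a*A arrays, 692.5, 665.6 and 783.6 on the miR-376a*G arrays, and 837.1, 585 and 714.1 in the control, so its groups overlapped. ERBB3 was called lower with miR-376a*G against control, at -0.45, when the first control array was left out. With all arrays it was at -0.66 and not called. TNF, the substrate that gave ADAM17 its older name, was below the filter.

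Of 28 measured shed receptors, adhesion proteins and cytokines, 1 rose and 2 fell with miR-376a*A against control. With miR-376a*G against control 1 rose and 4 fell. Between the forms 2 genes, CSF1 and PRNP, read higher after miR-376a*A and 1, SDC4, read lower, all called. Beside these counts stand 3.33%, 4.62% and 2.63% of all genes, in the same order of comparisons. CDH2, which encodes N-cadherin, an ADAM10 substrate, rose with both forms. It read 980.3, 949.2 and 1011 after miR-376a*A, 986, 1031 and 872.5 after miR-376a*G, and 216.2, 488.8 and 460.4 in the control. All treated arrays were above all controls. The log2 differences were 1.34 and 1.33 (SE 0.22 for each; limma adjusted p 0.00909 and 0.00789), and without the low first control array they were 1.00 and 0.99. A second probe set of CDH2 was also called with both forms, at 0.91 and 0.93.

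AXL, a receptor tyrosine kinase whose outer part is shed, was called lower with both forms, at -0.38 and -0.43 (SE 0.08; limma adjusted p 0.0319 and 0.0151). Its second, dimmer probe set was at 0.10 and 0.20 and was not called, so the probe sets of AXL disagreed in sign. With the first control array left out the brighter one was at -0.36 and -0.41, both called. SDC4, a heparan sulfate proteoglycan with a shed outer part, fell with miR-376a*A. It read 951.5, 948 and 858.8 there, 1205, 1192 and 1296 with miR-376a*G, and 1821, 1327 and 1462 in the control, and the 3 groups did not overlap. The log2 difference was -0.70 (SE 0.08) against control and -0.46 against miR-376a*G, with limma adjusted p of 0.00149 and 0.0176, and without the first control array it was -0.66 and -0.44, both called.

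The remaining calls in the list were lower with miR-376a*G. KITLG, the membrane-bound ligand of KIT, read 578.3, 602.6 and 614.6 with miR-376a*G and 814.3, 1013 and 1059 in the control, a log2 difference of -0.70 (SE 0.11, limma adjusted p 0.00629). With miR-376a*A it was -0.25 and not called. Leaving out the first control array gave -0.82 with miR-376a*G and -0.38 with miR-376a*A, both called lower. PRNP, the prion protein, read 1005, 1068 and 936.2 with miR-376a*G, 1920, 1643 and 1864 with miR-376a*A and 1654, 1682 and 1602 in the control. The miR-376a*G arrays were below all the others. Its log2 difference was -0.68 (SE 0.10) against control and 0.83 in favour of miR-376a*A between the forms, with limma adjusted p of 0.00401 and 0.00161, and a second PRNP probe set gave -1.48 and 1.41, both called. PRNP was at -0.75 against control, called lower, without the first control array.

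CSF1, the macrophage colony-stimulating factor, which ADAM17 can release, was -0.67 (SE 0.11) with miR-376a*G against control and 0.83 between the forms (limma adjusted p 0.00581 and 0.00226). Its dimmer probe set was at -0.29 and 0.26 and was not called. CSF1 was at -0.63 against control, called lower, without the first control array. Without the first control array the list held 3 higher and 4 lower with miR-376a*A, 3 higher and 8 lower with miR-376a*G, and 8 higher and 1 lower between the forms, beside 13.4%, 17.0% and 9.72% of all genes called in that fit. TNFRSF1A, the TNF receptor that ADAM17 cuts, was then 0.31 higher on the miR-376a*A than on the miR-376a*G arrays, and IL6R, the interleukin-6 receptor, another substrate, was 0.50 higher, both called. Against control in that fit TNFRSF1A was 0.27 with miR-376a*A, called higher, and -0.05 with miR-376a*G, not called. IL6R was below control with each form, at -0.36, not called, and -0.86, called lower, and was dim, reading 18.4 to 59.3. With all arrays TNFRSF1A was at 0.15 and -0.16 against control with miR-376a*A and miR-376a*G, and IL6R at -0.12 and -0.61. Between the forms they were then at 0.32 and 0.49, and none of these differences was called.

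**Figure D4:**
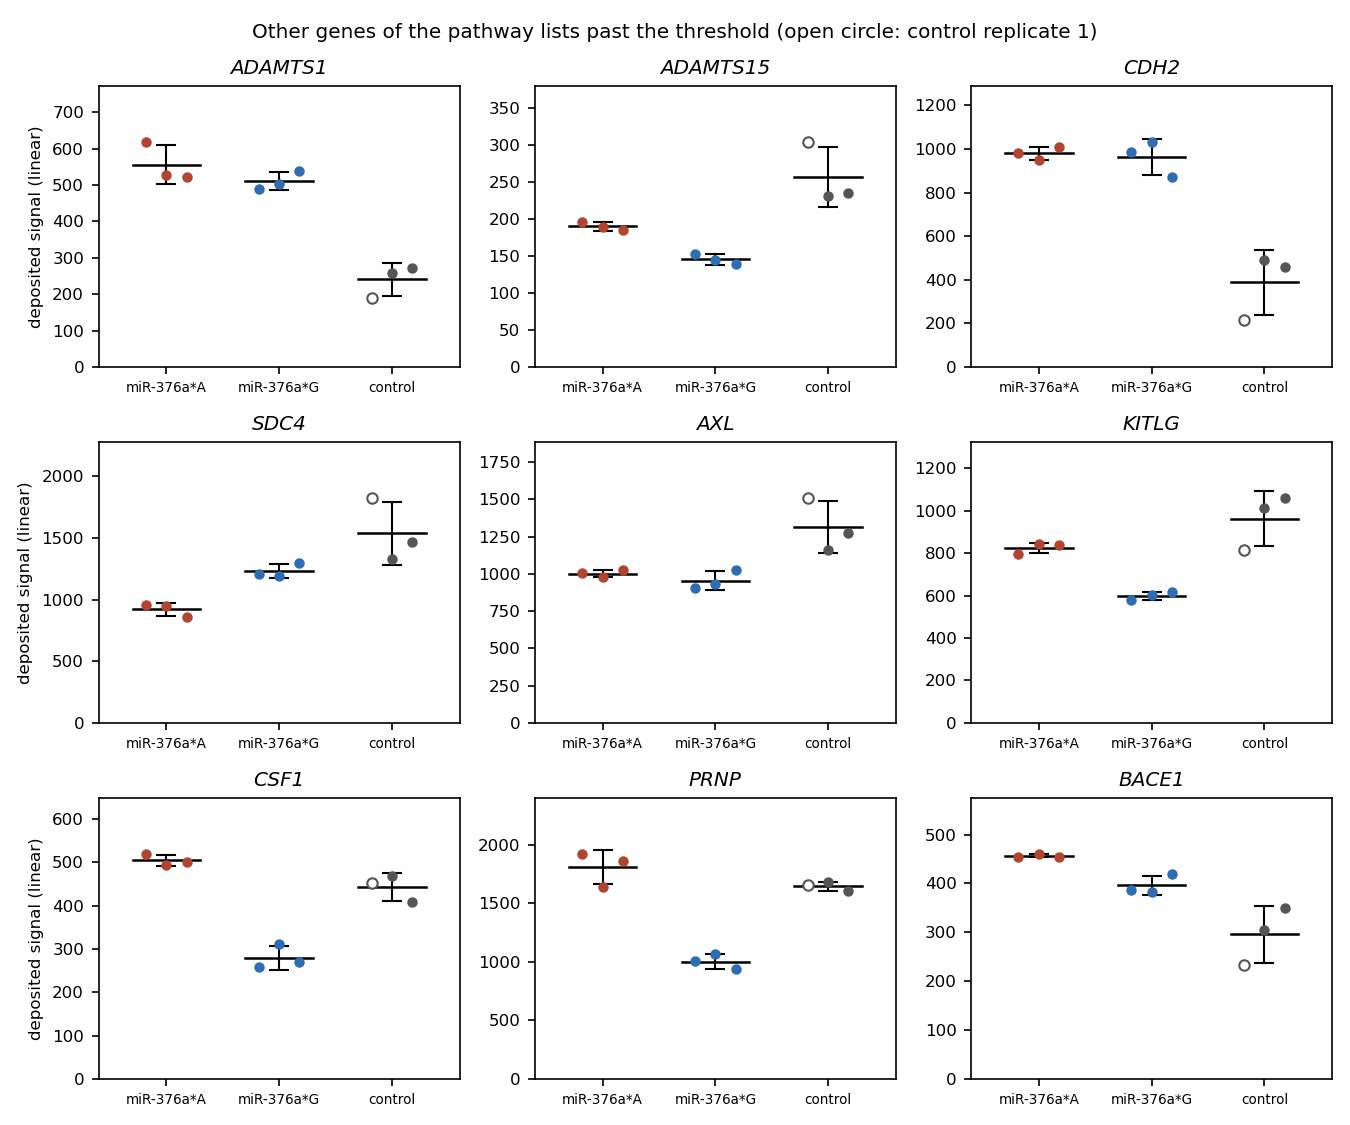
Deposited linear signal (y axis, from 0) of the 9 listed genes called in any comparison, on the 9 arrays by group (x axis). Points are arrays, the open circle is the first control array, the long line is the mean and the bars are the SD of 3 arrays. ADAMTS1 and CDH2 are high with both forms, and KITLG, CSF1 and PRNP are low with miR-376a*G.

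Of the 11 measured ADAMTS genes, secreted relatives of the ADAMs that act on the extracellular matrix, 1 rose and 0 fell with miR-376a*A, and 1 rose and 1 fell with miR-376a*G (limma). Of all genes 3.33% and 4.62% were called in those comparisons. ADAMTS1, which cuts aggrecan and versican, read 618, 527.2 and 522.3 on the miR-376a*A arrays, 490.3, 503.6 and 538.2 on the miR-376a*G arrays, and 189.7, 258.9 and 272.8 in the control. Every treated array exceeded every control. The log2 differences were 1.14 and 1.02 (SE 0.12; limma adjusted p 0.000817 and 0.00150), and the second probe set was called at 0.96 and 0.88. ADAMTS15 read 153.3, 144.5 and 139.2 with miR-376a*G against 304.1, 231.1 and 235.2 in the control, and fell by 0.76 on the log2 scale (SE 0.14, limma adjusted p 0.0141). Without the first control array the ADAMTS list held 2 higher with miR-376a*A, ADAMTS1 and ADAMTS14, and 1 higher and 3 lower with miR-376a*G, the lower ones being ADAMTS2, ADAMTS6 and ADAMTS15. Between the forms ADAMTS2 and ADAMTS15 were then higher with miR-376a*A. Those are 2, 4 and 2 of 11 genes, beside 13.4%, 17.0% and 9.72% of all genes. ADAMTS1 was at 1.02 and 0.91 and ADAMTS15 at -0.60 with miR-376a*G in that fit.

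Of the 8 measured secretases that act beside the ADAMs, BACE1 alone was called in the fit to all arrays, with miR-376a*A against control, where 3.33% of all genes were called. BACE1, the beta-secretase that competes with ADAM10 for the amyloid precursor protein, read 455, 460 and 455.2 after miR-376a*A, 387.2, 382 and 418.5 after miR-376a*G, and 234, 305.1 and 348.9 in the control. All treated arrays lay above all controls. The log2 difference was 0.60 (SE 0.12, limma adjusted p 0.0200) for miR-376a*A and 0.38 (SE 0.12, limma adjusted p 0.101) for miR-376a*G, with 0.21 between the forms, not called. Leaving out the first control array gave 0.48 and 0.27 against control, both called higher. Its 3 other probe sets were at 0.21, 0.25 and -0.31 and were not called. The 2 measured genes of the list of other ADAMs, ADAM20 and ADAM33, gave no call, and 11 more of that list lay below the filter.

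Markers of other cell types moved with the treatments in part. Of 10 on the array 4 passed the filter, PECAM1, RBFOX3, SNAP25 and MBP, whereas PTPRC, CD14, EPCAM, CDH1, KRT19 and CDH5 did not, CD14 reading at most 1.43 and KRT19 at most 2.04. None was at 0. The summed signal of the list was 569.5 to 595.8 with miR-376a*A, 467.2 to 580.1 with miR-376a*G and 368.5 to 407.2 in the control. SNAP25, a synaptic vesicle fusion protein, was the largest single part of that sum in each group, at 416 ± 16.2, 371 ± 49.8 and 186 ± 41.4 (SD, n = 3), and was called higher with both forms. The other markers that passed were not called. In the same order of groups PECAM1 averaged 76.7, 60.9 and 91.7, MBP 43.6, 49.1 and 63.4, and RBFOX3 24.9, 20.5 and 22.5. PECAM1 and MBP were thus highest in the control, and the higher sum with each form came from SNAP25. The part of these markers in the ADAM and substrate results was not tested.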

How the data were processed

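Total RNA of SW1783 cells in 3 groups of 3 was hybridised to Affymetrix arrays. The authors deposited linear signal intensities per probe set, and the submitters' processing notes name GCOS 1.4.0.036. How background was removed is not given in the sources used here. Arrays were scaled to a trimmed mean near 100 before deposit, so a change common to most transcripts would not be seen. No genome build is named by the files.

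Intensities became log2(signal + 16) and were quantile normalized. Probe sets with a mean below the 50th percentile (5.17) were left out, leaving 27338. The brightest probe set stood for each of 12505 genes. Differences were fitted to all 9 arrays in R 4.3.3 with limma 3.58.1 (lmFit, eBayes with trend, Benjamini-Hochberg over all genes). The fit was also tested on simulated data whose noise was independent between arrays. Such data cannot show the effect of arrays that deviate together. The number of arrays limits the precision.

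The genes and lists were chosen with earlier results of these data known. Named genes were each of the 8 with every probe set, listed genes past the threshold, at most 6 per list and comparison, and the 5 genes most correlated with ADAM17. ADAM20, ADAM33, TIMP1, EGFR and others named without a call, and those called only without the first control array, were named after their values were seen. Same-numbered miR-376a*G and control arrays deviated together (correlations 0.156, 0.187 and 0.125), a pairing seen in the data only, since the labels name no shared day or culture. Alternatives were other pseudocounts, scalings, filters, probe set averaging, no trend, array weights, a replicate block, only the arrays compared, and leaving out each array.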

Additional observations from a re-analysis of the deposited data

How the results depend on the processing

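Over 20 alternatives none reversed a called difference of the 8 genes, and 470 of 480 gene differences and 1243 of 1254 probe set differences moved by less than the spread between replicates. Much of this was fixed in advance. Fits without a trend, with the replicate block or with only the arrays compared cannot change a fold change, and the spread included the first control array. Only called differences could count as reversed. With miR-376a*A against control, RHBDF1 changed sign in 6 of 20, ADAM10 in 5, and ADAM9 and ADAM15 in 2 each. ADAM12, ADAM17, ADAM19 and TIMP3 did so in 0. Genes called in all with miR-376a*A against control numbered 417, but 2315 with array weights, 156 with only the 6 arrays compared and 176 to 1670 when an array was left out. With miR-376a*G against control 578 became 2427 with array weights, 204 with 6 arrays and 236 to 2124 when an array was left out, and 329 between the forms became 1656, 1292 and 143 to 1215. The upper end of each range is the fit without the first control array. Called genes of the 8 with miR-376a*A against control numbered 1, but 2 with a filter at the 60th percentile or without the trend, 3 with probe sets averaged or with array weights, 0 with only 6 arrays and 0 to 3 when an array was left out. With miR-376a*G 0 became 1 without normalization beyond the deposited scaling, with the 60th percentile filter, with probe sets averaged, without the trend and with array weights (ADAM19 each time), and 0 to 3 when an array was left out. Between the forms 2 became 1 with median centring, without normalization, without a filter and with the replicate block, and 1 to 3 when an array was left out. ADAM17 was the call lost there (limma adjusted p 0.0516 to 0.180 where not called), ADAM19 was called in 20 of 20 (1.07e-06 to 0.00881), and against control ADAM17 was called in 5 of 20 (5.64e-05 to 0.236) and ADAM19 in 16 of 20 (0.000121 to 0.0688). With the replicate number as a block, 292, 360 and 223 genes were called in the 3 comparisons; same-numbered arrays did not deviate together between miR-376a*A and control (-0.361 to 0.0315) or between the forms (-0.0984 to -0.0314), and ADAM17 had a limma adjusted p of 0.0822 between the forms under the block. With median centring the calls against control were 228 higher and 108 lower for miR-376a*A, beside 244 and 173, and 288 and 161 for miR-376a*G, beside 313 and 265. Dim signals close to background, such as the second probe sets of ADAM19 and RHBDF1, set what could be measured. The cause of these shifts was not tested.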
